A study of Mus musculus with 2 samples.

Results

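The small nucleolar RNA (snoRNA) genes of doxycycline-inducible CTCFL-V5-GFP mouse embryonic stem (ES) cells were chosen by name, as all probe sets that the platform annotation pairs with 1 gene symbol beginning with Snord or Snora. They were 56 of the 21789 probe sets with 1 symbol and covered 51 of 19938 genes. C/D box snoRNAs (Snord) made up 33 probe sets of 31 genes and H/ACA box snoRNAs (Snora) 23 probe sets of 20 genes. RNA of 2 cell populations was hybridized to Affymetrix Mouse Gene 1.0 ST arrays. The cells, ROSA26-rtTA ES cells that carry a tetracycline-responsive construct selected with G418, were grown on gelatin in medium with leukemia inhibitory factor, so both arrays share the transgene and the rtTA activator. The construct encodes CTCFL, the germ cell paralog of the insulator protein CTCF, with V5 and GFP (green fluorescent protein) fused to it. Cells of the induced array received doxycycline over 3 days and were then sorted by their GFP, and cells of the non-induced array received no doxycycline and were left unsorted. With 1 array per group there was no replicate and no test, and a difference between these arrays carries no error. Doxycycline, sorting and CTCFL changed together and cannot be told apart. Each value below is an RMA signal on the log2 scale, where RMA (robust multi-array averaging) corrects background, scales the arrays and summarizes the probes of a set. Each difference is the induced minus the non-induced value. Since the cells were measured in bulk, fewer cells of a type and less RNA per cell cannot be told apart.

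snoRNAs are short nuclear RNAs that guide the modification of ribosomal RNA by base pairing. C/D box snoRNAs direct 2′-O-methylation by the methyltransferase fibrillarin, and H/ACA box snoRNAs direct pseudouridylation by dyskerin. A few of either class are instead needed to cut the ribosomal RNA precursor. In mammals most snoRNAs lie in introns of other genes, many of which code for ribosomal proteins, and are trimmed by exonucleases from the debranched intron, while the remaining exons give the spliced host RNA. A snoRNA and its host therefore share a transcript but not a fate. ES cells divide fast and make many ribosomes.

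Box C is the defining sequence near the 5′ end of a C/D box snoRNA, and a stretch of Snord33 is printed to show it. RefSeq (GRCm38.p6) annotates the Mir5121 hairpin over the first 28 of the 82 bases of Snord33, in the Rpl13a gene, and this overlap gives its 5′ end at chr7:45126918-45126945 on the minus strand, with UGAUGA, the core of box C, in capitals:

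Snord33: agcuugUGAUGAgacaucucccacucau

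The letters UGAUGA began at position 7 counted from the 5′ end. They were found on the RNA strand of 2.69% of the 1005 mouse microRNA hairpins in the same source. Many snoRNA hosts belong to the genes whose RNA opens with a terminal oligopyrimidine tract, a C followed by C or T, which ties their translation to growth signals. Start sites of 7 hosts (for Gas5 1 of its 2 RefSeq starts, the other being without a tract) are shown for this feature, each with 10 bases before and 20 bases from the RefSeq start, and with the tract in capitals where a C followed by at least 4 C or T began within 5 bases of the start:
Gas5, chr1:161035156-161035185, plus strand: ccatctcagcCTTTCggagctgtgcggcat
Snhg12, chr4:132308668-132308697, plus strand: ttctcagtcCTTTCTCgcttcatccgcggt
Rack1, chr11:48800350-48800379, plus strand: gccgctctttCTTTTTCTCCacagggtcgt
Rpl27a, chr7:109519185-109519214, plus strand: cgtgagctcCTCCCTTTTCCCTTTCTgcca
Rplp2, chr7:141447641-141447670, plus strand: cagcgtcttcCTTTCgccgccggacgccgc
Rpsa, chr9:120127756-120127785, plus strand: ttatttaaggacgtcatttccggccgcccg
Kansl2, chr15:98534250-98534279, minus strand: gccagagggcaagctgcgcggtgccgcgcg
By this rule the first 5 carry a tract and the last 2, the hosts of Snora62 and Snora2b, do not. The rule misses a tract that begins farther from the RefSeq start, so a host without one here may still have one. A tract by this rule was found for 14 of the 31 host genes with a RefSeq start, or 45.2%, against 21.2% of 27025 genes read in the same way on the coding strand only.

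All 56 snoRNA probe sets had a lower signal on the induced than on the non-induced array. The direction of these values was known when the genes were chosen, so it is a description and supports nothing further. The median difference was -0.82 (mean -0.91 ± 0.43, SD over the 56 probe sets, which are no replicates), with quartiles at -1.12 and -0.63. Over all probe sets with 1 symbol the median difference was 0.01, the quartiles lay at -0.25 and 0.26, and 48.9% were below 0. Among the 3751 others whose mean signal lay within the quartiles of the snoRNAs, 7.94 to 10.3, the median was -0.10 and 63.4% were below 0. A difference at or below the snoRNA median was seen for 3.13% of all probe sets with 1 symbol.

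A drop of log2 1 or more, counted where the higher value reached the floor of 6.36 (the median of all values of these probe sets), was found for 16 of the 56 snoRNA probe sets, which is 29.6% of the 54 that reached the floor. The same drop was found for 1.97% of the 11682 probe sets at or above the floor. A rise of this size was found for 0 snoRNA probe sets, against 0.445% of those 11682. A drop of at least 0.5, counted without a floor, was seen for 48 of the 56 and for 10.4% of all 21789. At the floor, 44 snoRNA probe sets fell by log2 0.58 or more, against 8.87% of the 11682. The floor was reached on both arrays by 47 snoRNA probe sets and on the non-induced array alone by 7. Both values of Snord37 and of 1 of the 2 Snord58b probe sets lay under it.

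**Figure D1:**
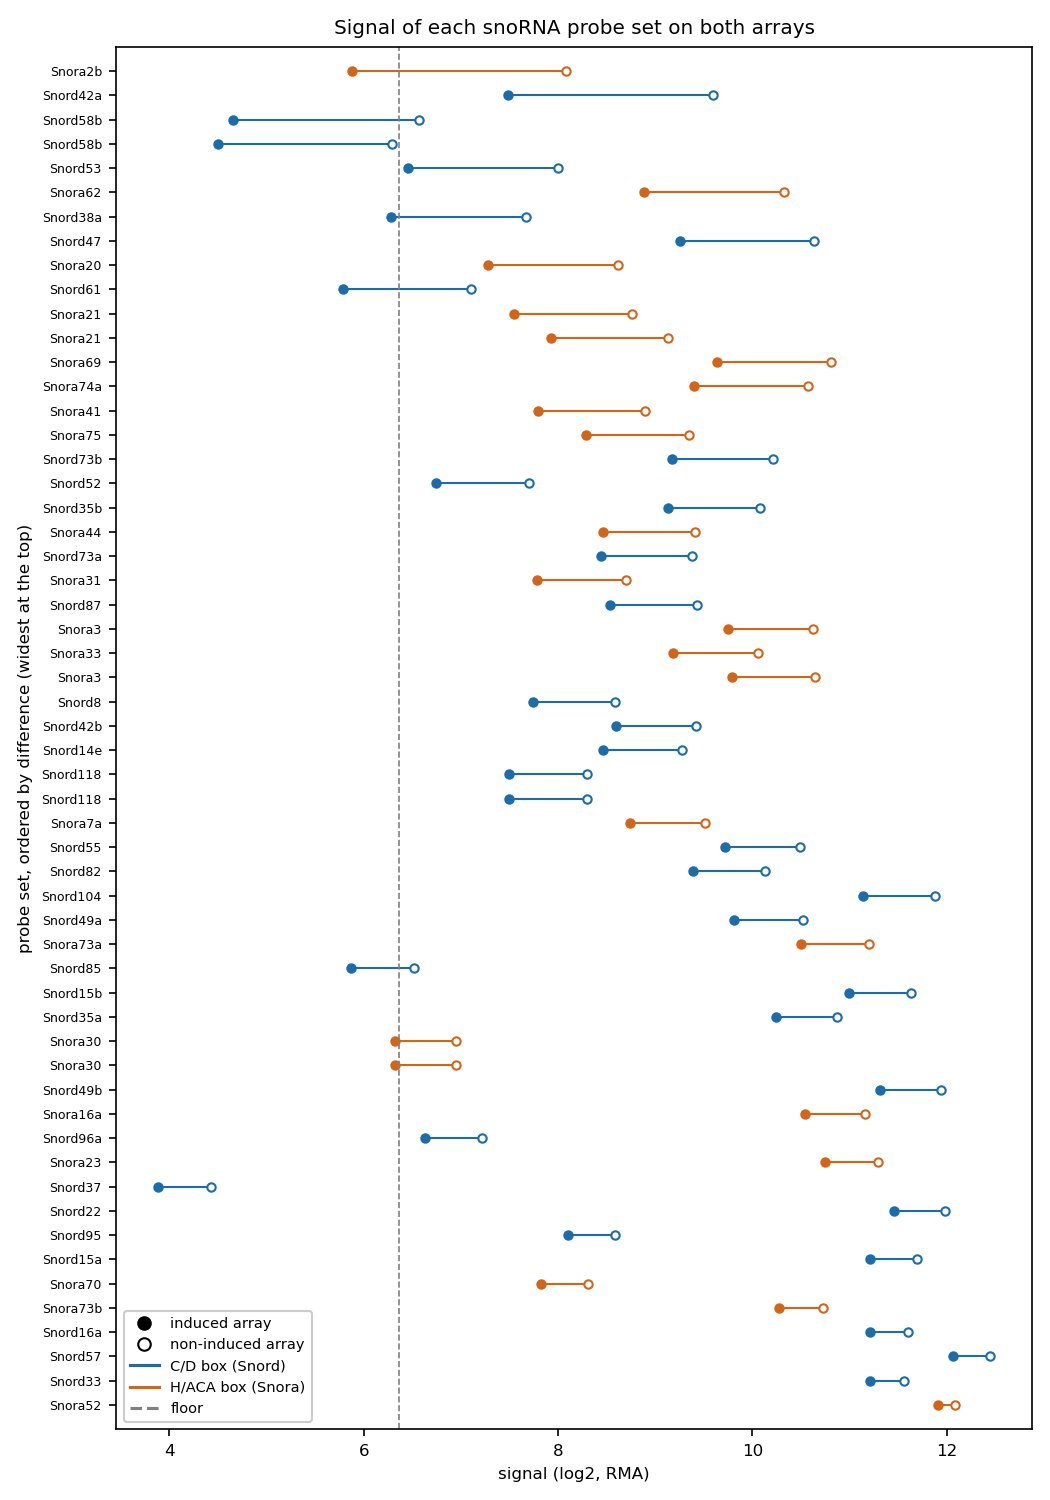
Signal (log2, RMA) of each of the 56 snoRNA probe sets on the induced array (filled) and the non-induced array (open), ordered by difference, with C/D box snoRNAs in blue, H/ACA box snoRNAs in orange and the floor of 6.36 as a dashed line. Every filled point lies to the left of its open point, with differences from -2.21 for Snora2b at the top to -0.18 for Snora52 at the bottom.

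The 2 classes overlapped over most of their range. C/D box probe sets had a median difference of -0.80 (range -2.11 to -0.35), with median signals of 8.54 on the induced and 9.43 on the non-induced array. H/ACA box probe sets had a median of -0.88 (range -2.21 to -0.18), with median signals of 8.74 and 9.51. Drops of log2 1 or more numbered 7 of the 31 C/D box probe sets at or above the floor (22.6%) and 9 of 23 H/ACA box probe sets (39.1%). The medians of the classes lay 0.08 apart, and the difference between the classes was not tested.

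Among C/D box snoRNAs the widest drop was that of Snord42a, encoded within the ribosomal protein gene Rpl23a, with 7.49 on the induced and 9.60 on the non-induced array, a difference of -2.11 (4.32-fold lower). Snord58b followed, with 4.66 and 6.57 in the probe set that reached the floor and 4.50 and 6.29 in the other. Its differences were -1.91 and -1.79, so the 2 probe sets lay 0.12 apart. Snord53, within Wdr43, which codes for a protein of the small subunit processome, gave 6.45 and 8.0 (-1.55). Snord38a gave 6.28 and 7.67 (-1.39). Snord47, of the multi-snoRNA host Gas5, gave 9.25 and 10.63 (-1.38). Snord61, within Rbmx, gave 5.79 and 7.10 (-1.31), and Snord73b, within Rps3a1, gave 9.17 and 10.21 (-1.04). The induced values of Snord58b, Snord38a and Snord61 were under the floor.

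The 5 C/D box snoRNAs with the highest mean signal moved less. Signals of different probe sets depend on their probes and are not compared here as amounts of RNA. Snord57, within Nop56, itself the gene of a C/D box core protein, had 12.07 and 12.45 (-0.38). Snord22, the U22 RNA needed to process the small subunit ribosomal RNA, had 11.46 and 11.99 (-0.53), and Snord49b had 11.32 and 11.94 (-0.62). Snord104 had 11.14 and 11.88 (-0.74). Snord15a had 11.21 and 11.70 (-0.49). Their differences ran from -0.74 to -0.38, all above the median of their class. The 5 highest differences at or above the floor were those of Snord33 (11.21 and 11.56, -0.35), Snord57, Snord16a within Rpl4 (11.21 and 11.61, -0.40), Snord15a and Snord95 within Rack1 (8.10 and 8.59, -0.49). Snord118, the U8 RNA needed to mature the large subunit RNAs, lay in no other gene's span in the annotation. Both of its probe sets hold the same values, 7.50 and 8.30, a difference of -0.80 equal to the C/D box median. Snord14e, of the U14 family that acts in small subunit processing and encoded within the heat shock cognate gene Hspa8, had 8.46 and 9.27 (-0.81).

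Among H/ACA box snoRNAs Snora2b, within Kansl2, a subunit gene of a histone acetyltransferase complex, had the widest drop of all snoRNAs. Its signal was 5.88 on the induced and 8.08 on the non-induced array, a difference of -2.21 (4.62-fold lower). Snora62, within Rpsa, had 8.88 and 10.33 (-1.45), and Snora20, within the chaperonin gene Tcp1, had 7.28 and 8.62 (-1.34). The 2 probe sets of Snora21, within Rpl23, had 7.55 and 8.76 (-1.22) and 7.92 and 9.13 (-1.21). Snora69, within Rpl39, had 9.63 and 10.81 (-1.17), and Snora74a, within the noncoding Snhg4, had 9.40 and 10.57 (-1.17). Snora41, within the elongation factor gene Eef1b2, had 7.80 and 8.89 (-1.10). Snora75, within Ncl, the gene of nucleolin, had 8.29 and 9.35 (-1.06). Of these 9 probe sets 8 were above the floor on both arrays, the exception being Snora2b.

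The narrowest difference of all was that of Snora52, within Rplp2, with 11.91 and 12.09 (-0.18). It was followed among H/ACA box snoRNAs by Snora73b (10.27 and 10.73, -0.45), Snora70 within Rpl10 (7.83 and 8.31, -0.49), Snora23 within the importin gene Ipo7 (10.74 and 11.29, -0.55) and Snora16a (10.54 and 11.16, -0.62). Snora73a, with Snora73b the U17 RNA that acts in cutting the ribosomal RNA precursor, had 10.50 and 11.20 (-0.70). Snora52, Snora23, Snora73a, Snora16a and Snora73b were also the 5 H/ACA box snoRNAs with the highest mean signal. The size of log2 1 fell within a run of close values. Snord73b (-1.04) and Snora75 (-1.06) lay just past it, and Snord52 (6.74 and 7.70, -0.97) and Snord35b (9.13 and 10.08, -0.95) just short of it.

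The drop was narrower at the bright end. With 1 probe set per gene, the rank correlation (Spearman) of difference and mean signal was 0.49 over the 51 snoRNA genes, 0.52 over the 31 C/D box and 0.48 over the 20 H/ACA box genes. These are descriptions over genes of the same arrays, and the difference and the mean share their values. The 15 snoRNA probe sets under a mean signal of 8 had a median difference of -0.97, the 22 from 8 to 10 had -0.94 and the 19 from 10 upward had -0.62. The other probe sets of the same bands had medians of 0.04, -0.10 and -0.01. In the brightest band 1 of 19 snoRNA probe sets fell by log2 1 or more, against 1.82% of the others. In the middle band the count was 9 of 22, against 2.36%, and in the dimmest 6 of 15, against 0.661%. RefSeq lengths ran from 45 to 148 bases (median 68) for C/D box and from 61 to 205 bases (median 125) for H/ACA box genes, and difference and length had a rank correlation of 0.41 and 0.45 within the classes. Length and mean signal were themselves correlated (0.42 and 0.74). The part of signal or length in the differences was not tested.

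**Figure D2:**
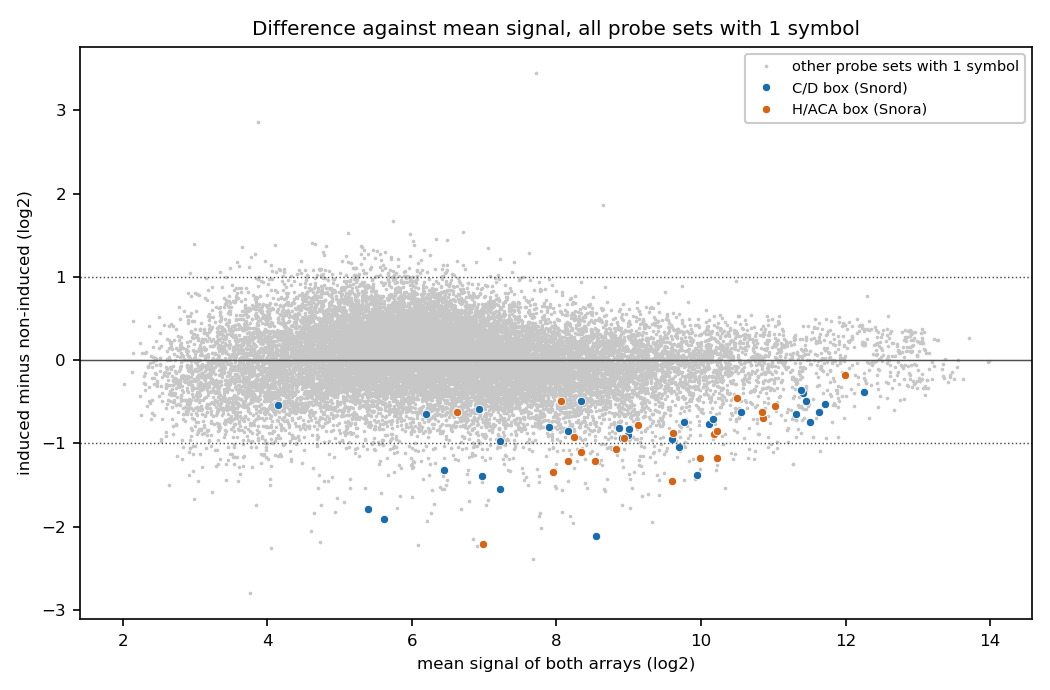
Induced minus non-induced difference (log2) against the mean signal of both arrays (log2) for all 21789 probe sets with 1 symbol, with C/D box snoRNAs in blue, H/ACA box snoRNAs in orange and the others in grey. The dotted lines mark log2 1 in either direction, and all 56 snoRNA points lie below 0, from -2.21 to -0.18.

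The measured host genes showed no drop of this size. The span of exactly 1 other gene held 51 of the 56 snoRNA probe sets, those of several genes held 3, and the 2 Snord118 sets lay in none. The array measured 22 of these hosts with a symbol of their own, which paired with 29 snoRNA probe sets of 26 genes. The hosts had a median difference of -0.05 (range -0.55 to 0.48), with 13 below and 9 above 0 and 0 past log2 1 in either direction. They were brighter, with a median mean signal of 11.97, against 8.87 for the paired snoRNA probe sets. The part of signal in this comparison was not tested. In all 29 pairs the snoRNA difference was lower than that of its host. With every snoRNA difference below 0, this was given in advance for each host above 0. The snoRNA minus the host difference had a median of -0.80 and ran from -1.88 to -0.19. snoRNA and host differences had a rank correlation of 0.27 over the 26 genes, a description in which several snoRNAs share a host.

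Snord42a and Rpl23a stood farthest apart. Rpl23a, a large subunit ribosomal protein gene, had 13.02 on the induced and 13.25 on the non-induced array, a difference of -0.23, and its 13 probe sets ran from -0.29 to -0.21. Kansl2 had 9.04 and 9.38 (-0.34), against -2.21 for Snora2b. Rpsa had 12.43 and 12.08, a difference of 0.35 and thus opposite in sign to that of Snora62. Tcp1, at 11.29 and 11.09 (0.20), also went against its snoRNA, Snora20. Since every snoRNA probe set was below 0, signs had to differ for all 9 hosts above 0. Among these were Rps12 (0.32) with Snora33 (9.18 and 10.05, -0.87) and Rpl27a (0.11) with the 2 Snora3 sets (-0.88 and -0.85). Eef2 (0.26) was another, with Snord37, whose values of 3.88 and 4.42 (-0.54) were under the floor. Rplp2 had the highest host difference, 0.48 (6.98 and 6.50), and its Snora52 the highest snoRNA difference. Rbmx (6.44 and 6.99, -0.55) and Rps3a1 (11.84 and 12.39, -0.55) were the lowest hosts, and Ipo7 (10.09 and 10.45, -0.36) was the host nearest to its snoRNA, Snora23, which lay at -0.19 relative to it.

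**Figure D3:**
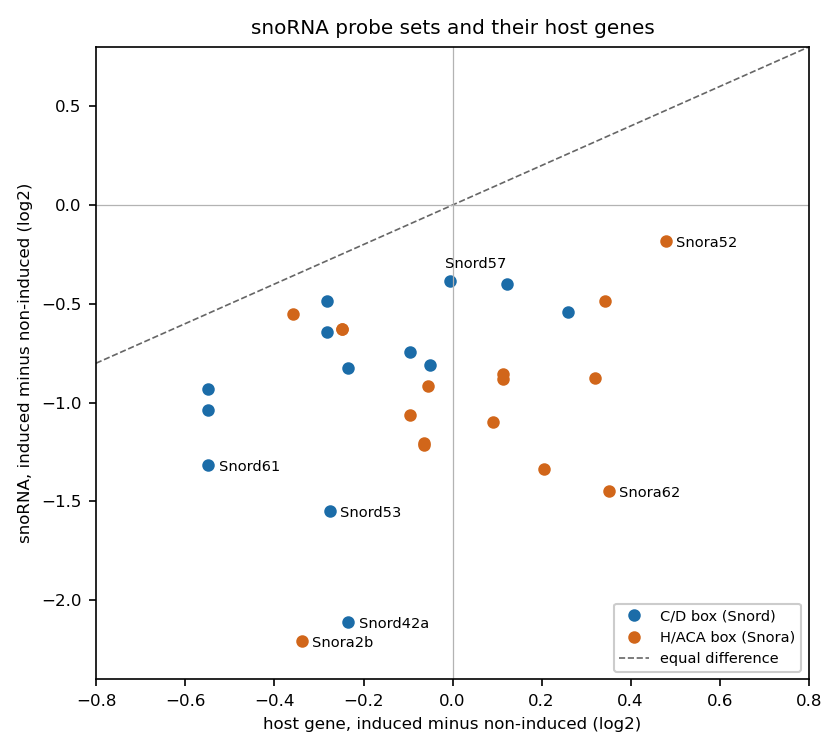
Induced minus non-induced difference (log2) of 29 snoRNA probe sets against that of the host gene whose span holds them, with C/D box snoRNAs in blue, H/ACA box snoRNAs in orange and the line of equal difference dashed; identical probe sets overlie each other. All 29 points lie below the line, and the hosts spread from -0.55 to 0.48.

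The drop was seen with every kind of host. The 24 snoRNA probe sets within ribosomal protein genes had a median of -0.88 (range -2.11 to -0.18), the 17 within other protein-coding genes -0.75 (-2.21 to -0.38) and the 10 within noncoding hosts -0.70 (-1.17 to -0.45). These ranges overlapped. The ribosomal protein hosts themselves, 10 with a value, had a median difference of 0.12, the same as the 54 measured ribosomal protein genes, of which 19 were below and 35 above 0. A further split took only snoRNA probe sets within the span of exactly 1 gene. The 20 whose host has a pyrimidine tract by the rule above had a median of -0.63 (range -1.34 to -0.18). The 20 whose host has none by that rule had -0.92 (-2.21 to -0.38). Snord47 of Gas5 (-1.38) and Snord8 of Chd8 (-0.85), each within 2 spans, were in neither group. Hosts whose tract begins farther from the RefSeq start would fall in the second group, so the split need not separate hosts with and without a tract. The difference between these groups was not tested.

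snoRNAs of the same host moved by different amounts. In 10 hosts with 2 measured members each, the gap between the members ran from 0.08 to 1.29, with a median of 0.26. The widest gap was that of Rpl23a, where Snord42b had 8.60 and 9.42 (-0.82) against -2.11 for Snord42a. Ncl holds a member of either class, Snora75 at -1.06 and Snord82 (9.39 and 10.13) at -0.75. Rpl13a, whose snoRNAs are known for a role in lipid stress, holds Snord35a (10.25 and 10.87, -0.63) and Snord33, 0.27 apart. Where 5 genes had 2 probe sets each, these lay at most 0.12 apart, and those of Snora30 and of Snord118 were identical.

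Long noncoding snoRNA hosts, whose exons code for no protein, were read from a list of 24, of which 8 had a probe set with 1 symbol. Of these 8 only Gas5 holds a snoRNA probe set of this report in its span. The hosts of the 10 snoRNA probe sets within noncoding genes had no value, so the list does not describe them. The median difference of the 8 was -0.06, with 4 below and 4 above 0 and 1 past log2 1. Snhg15 had 8.29 and 9.82 (-1.53), Snhg16 had 7.85 and 8.77 (-0.92) and Snhg5 had 10.44 and 10.97 (-0.53). Gas5 had 4 probe sets, with differences of -0.30, -0.19, -0.25 and -0.92, all higher than the -1.38 of its Snord47. On the other side, Meg3 (5.64 and 5.39, 0.25), Rian (4.84 and 4.43, 0.41) and Snhg11 (6.86 and 6.47, 0.40) were higher on the induced array. Meg3 and Rian had both values under the floor, and the dimmer Snhg11 probe set had -0.06.

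RNA signals of the genes for proteins that carry snoRNAs differed less than those of the snoRNAs by their medians. Of the C/D box core, Nop58 had 10.81 and 11.31 (-0.50), Nop56 had 10.65 and 10.65 (-0.01), Snu13, the protein that binds the box C and D turn, had 11.45 and 11.39 (0.06), and Fbl, the gene of fibrillarin, had 10.37 and 10.21 (0.16). Of the H/ACA core, Dkc1, the gene of dyskerin, had 10.54 and 10.92 (-0.38), Gar1 had 8.95 and 9.04 (-0.09), Nhp2 had 10.98 and 10.91 (0.07) and Nop10 had 11.10 and 11.01 (0.09). Core genes with several probe sets were read from the brightest, and the other Fbl set had -0.09. The core medians were 0.03 and -0.01, and 0 of the 8 genes changed by log2 1.

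Of the factors that assemble or trim snoRNAs, each read from its brightest probe set, 1 fell by log2 1 or more. The same drop was found for 1.97% of all probe sets at the floor. Of 12 assembly factors 11 were below 0, with a median of -0.36 and 0 past log2 1. Znhit3, a C/D box assembly factor, had 8.96 and 9.90 (-0.94), Naf1, the H/ACA factor later replaced by Gar1, had 7.41 and 8.22 (-0.81), and Znhit6 had 9.04 and 9.83 (-0.79). The factor above 0 was the ATPase gene Ruvbl1, with 10.05 and 9.97 (0.07). Of 18 measured genes of intron debranching and end trimming 17 were below 0, with a median of -0.42. C1d, a cofactor of the nuclear exosome, had 8.16 and 9.17 and fell by 1.01, the only 1 of the list past log2 1 by its brightest probe set. The dimmer set of Mphosph6 also passed it, at -1.04. Dbr1, which opens the intron lariat from which snoRNAs are released, had 7.10 and 7.85 (-0.75), and the exosome subunit gene Exosc2 had 8.94 and 9.63 (-0.68). Exosc7 had 8.85 and 8.68 (0.17).

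RNA polymerase I and pre-rRNA processing genes were below 0 in 37 of 42 cases, with a median of -0.21. Past log2 1 by their brightest probe sets were Mphosph10, of the U3 particle (9.33 and 10.64, -1.31), and Utp3 (7.83 and 8.89, -1.06). A drop of this size was found for 1.97% of all probe sets at the floor. Taf1a, of the polymerase I selectivity factor, had 8.24 and 9.19 (-0.95). Imp3 (10.28 and 9.88, 0.39), Dhx37 (8.45 and 8.27, 0.18) and Polr1d (9.39 and 9.25, 0.14) had the highest differences. These counts stand beside the 63.4% below 0 among other probe sets of a middle signal. The lists were drawn up with results of these arrays known, and their counts and medians are descriptions that support nothing further.

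**Figure D4:**
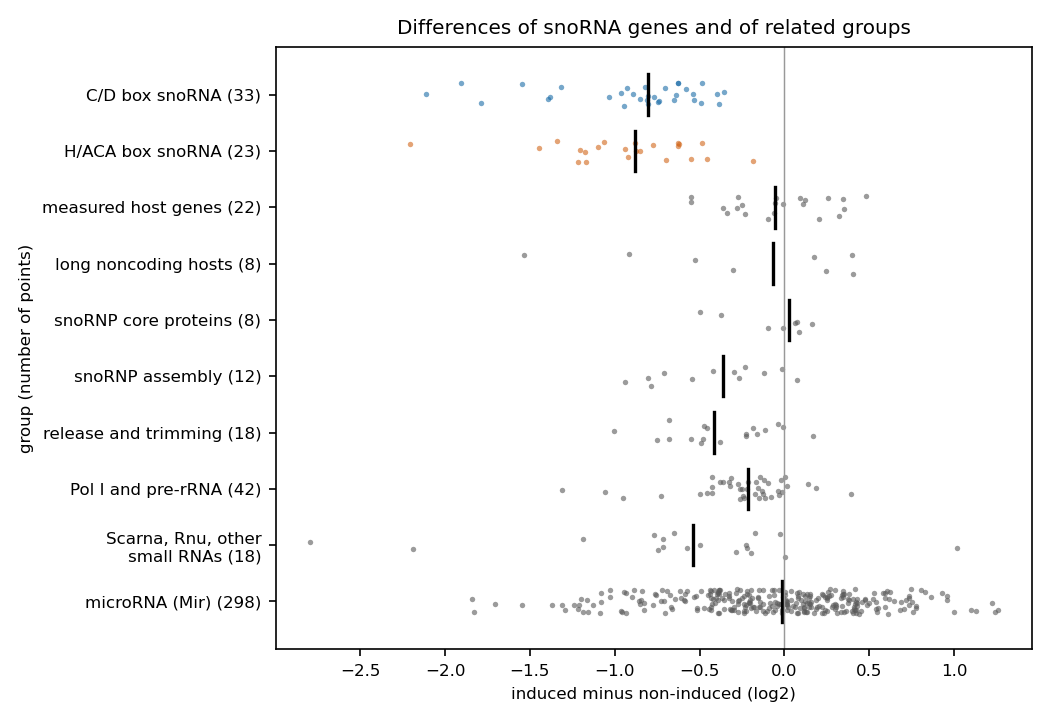
Induced minus non-induced difference (log2) of C/D box and H/ACA box snoRNA probe sets, host genes, the lists of snoRNP and ribosomal RNA genes, other small RNAs and microRNAs. Each point is 1 probe set or 1 gene, black bars are medians and the numbers of points are in brackets; the snoRNA medians are -0.80 and -0.88, that of the measured hosts is -0.05 and that of the microRNAs is -0.01.

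The median of the microRNAs lay near 0, while most of the other small RNAs on the array were lower on the induced array. The 298 microRNA (Mir) probe sets, mostly dim, had a median difference of -0.01, with 151 below and 147 above 0. Only 69 were at or above the floor. Of these 5 fell by log2 1 or more, or 7.25%, against 1.97% of all probe sets at the floor. A rise of this size was seen for 1 of them, against 0.445% of all. Of 18 probe sets of other small RNAs 16 were below 0, with a median of -0.54, while 48.9% of all probe sets with 1 symbol were below 0. The relatives of snoRNAs in Cajal bodies were lower, Scarna13 at 8.42 and 9.17 (-0.75), Scarna17 at 10.95 and 11.67 (-0.72) in 2 identical sets and Scarna8 at 6.43 and 6.72 (-0.29). Rnu3a, the independently transcribed U3 snoRNA, had 9.66 and 10.84 (-1.19). Of the spliceosomal and histone processing RNAs, Rnu12 had 8.12 and 8.77 (-0.65), while Rnu6 (2.37 and 5.16), Rnu5g (3.64 and 5.83) and Rnu7 (6.27 and 5.25) had values under the floor on both arrays. Other abundant small RNAs, picked after their values were seen, included Terc, the H/ACA-like telomerase RNA (9.08 and 9.86, -0.77), Rny1 (10.24 and 10.81, -0.57), Rprl1 (9.78 and 10.28, -0.50), Rny3 (13.52 and 13.74, -0.23), Rprl2 (10.75 and 10.92, -0.17), Rmrp (13.08 and 13.30, -0.22), Rpph1 (13.56 and 13.55, 0.00) and the 2 sets of Rn7sk (-0.03 and -0.20).

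The cells matched their label on both arrays. Ctcfl had 9.44 on the induced and 5.99 on the non-induced array, a difference of 3.45. All 8 ES cell markers were above the floor, with median signals of 10.84 and 10.96 and a median difference of -0.01. Of the markers of other cells, 7 of 8 fibroblast, 4 of 5 endoderm, 3 of 4 neural and 1 of 4 male germ cell genes were higher on the induced array, with median differences of 0.44, 0.26, 0.13 and -0.27. Above 0 were 51% of all probe sets with 1 symbol. Summed on the linear scale, the fibroblast list had a signal of 754 on the induced and 556 on the non-induced array, the endoderm list 352 and 292, the neural list 637 and 564 and the germ cell list 291 and 416. Of the fibroblast markers Col1a1, Thy1, Col1a2, Col3a1 and Twist2 reached the floor and were higher on the induced array by 0.41 to 0.59, while Dcn, Lum and Pdgfrb were under it on both arrays. Among germ cell markers Sycp3 had 5.35 and 7.18 (-1.83) and Stra8 had 5.93 and 5.01 (0.92), the latter under the floor on both. The part of these cells in the snoRNA differences was not tested.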

How the data were processed

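The deposited values were log2 signals of each probe set, which the authors obtained with RMA according to the submitters' processing notes. For its version and the annotation build, nothing is given in the sources used here. The labels speak of biotinylated cRNA from 300 ng of total RNA, the methods of single-stranded DNA. Values ran from 1.36 to 14.5. Arrays give no counting error, and 1 array per group limits the precision.

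Of 35557 probe sets 21789 had 1 platform symbol, and those with several (1621) or none (12147) were left out. Hosts were the other genes whose RefSeq span (GRCm38.p6) held a snoRNA gene, without regard to strand, which that table lacks. Of several probe sets of a host or list gene, the highest in mean signal was taken. The members and lists were chosen with earlier results of these data known. Named were all members past log2 1 at the floor of 6.36, the 5 highest mean signals and the 5 highest differences per class, the 2 on either side of log2 1, their hosts, core proteins and the widest 3 each way of the lists; the other members and small RNAs named, and the 7 hosts whose start sites are printed, were chosen after their values were seen. Alternatives were centring, quantile normalization, lowess (fraction 0.3), an offset of 32, other floors, sizes, probe sets and the mean. Box motifs over all snoRNAs were not analysed here. Results for some host genes are not reported here. Steps were tested on simulated data. Python 3.11.15, numpy 2.4.6, pandas 2.3.3, statsmodels 0.14.6 and matplotlib 3.10.9 were used.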

Additional observations from a re-analysis of the deposited data

Results flagged for a closer look

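Probe sets that carry several symbols entered no value of the report, and 41 of them have a snoRNA symbol. Of these, 24 carry symbols that include an imprinted C/D box family. All 24 were higher on the induced array, with a median difference of 0.91 (range 0.66 to 0.95) and median signals of 9.26 on the induced and 8.36 on the non-induced array. They all carry the same combination of symbols, and 18 of them hold the same pair of values, so they are not 24 separate measurements. Among the other 17, 16 were lower and 1 was higher on the induced array, with a median of -0.98, and 8 fell by log2 1 or more. The difference between these groups was not tested, since there was 1 array per condition.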

How the results depend on the processing

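All 56 snoRNA probe sets stayed below 0 under centring of each array, quantile normalization, lowess and the offset. Under these the snoRNA median was -0.90, -0.73, -0.73 and -0.76, and 21, 13, 13 and 12 probe sets fell by log2 1 or more at the floor. Centring moved the median of all probe sets to -0.08. The probe sets that rose by log2 1 remained at 0 under every alternative run. Of 46 alternative values 45 moved by less than 0.1 on the log2 scale or 1.5 times for a count. The exception was the size, since 44 snoRNA probe sets fell by log2 0.58 or more, as did 8.87% of all at the floor. Leaving out the imprinted families gave no other value, as 0 members belong to them. No paired analysis was possible because each group is a single array. RMA compresses differences of dim probe sets, and no alternative gives an error.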

Other observations

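Other transcripts that RefSeq classes as snoRNAs, under symbols that do not begin with Snord or Snora, were Gm12238, with 8.08 on the induced and 8.84 on the non-induced array (-0.76), DQ267101, with 4.06 and 4.24 (-0.18), and DQ267102, with 6.40 and 5.75 (0.66). They were found after the values were seen. DQ267102 was thus higher on the induced array, unlike all 56 Snord and Snora probe sets. Several genes that the lists represent by their brightest probe set had others with wider differences. The 9 probe sets of Taf1d, a polymerase I factor gene, ran from -1.13 to -0.24, the brightest being the highest, and the 3 of the noncoding Snhg17 ran from -1.35 to 0.17. The 2 sets of Mphosph6, an exosome cofactor gene, had -1.04 and -0.55. Signs also differed between the 2 sets of Fbl (-0.09 and 0.16) and of Snhg11 (-0.06 and 0.40).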
